A study of Mus musculus with 15 samples.

Results

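The mRNAs of beta-catenin (Ctnnb1) and of 6 proteins that mark it for destruction were followed through 5 culture conditions of mouse embryonic stem (ES) cells. The other genes were Gsk3a, Gsk3b, Apc, Axin1, Csnk1a1 and Btrc. They were chosen by name, and all 7 were measured, among 19937 genes in all. Each had 1 probe set on the array. Total RNA had been hybridised to 15 single-colour Affymetrix whole-transcript arrays, with n = 3 in each group. All cells came from 1 line, adapted to 2i culture (the inhibitors CHIR99021 and PD0325901 together), in which Ctnnb1 carries a knocked-in biotin and FLAG tag and the biotin ligase BirA is present. Every Ctnnb1 value, controls included, is therefore that of a tagged locus in a single line. The 2iLIF group stayed in long-term culture with CHIR99021 (3 µM), PD0325901 (1 µM) and the cytokine LIF. The other groups spent 24 h without LIF: 2i kept both inhibitors, CHIR kept CHIR99021 alone, PD03 kept PD0325901 alone, and DMSO kept neither. Values are log2 signals made with RMA, so a difference of 1 is a doubling, and RMA compresses the differences of weak probes.

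Beta-catenin joins cadherins at cell junctions and, in the nucleus, serves as the coactivator of TCF and LEF factors in Wnt signalling. In the absence of Wnt, the scaffolds Axin and APC hold it while casein kinase 1 alpha and then GSK3 phosphorylate its amino terminus, the F-box protein beta-TrCP binds the phosphorylated form, and the proteasome degrades it. CHIR99021 inhibits both GSK3 kinases and PD0325901 inhibits MEK, the kinase upstream of ERK. In ES cells, GSK3 inhibition is used to stabilise beta-catenin protein and so relieve repression by TCF7L1. That control acts on protein, which these arrays do not measure.

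Known targets differed with each inhibitor. Axin2, a Wnt target, was higher with CHIR99021 by 1.49 ± 0.06 (SE; averaged over both PD0325901 states), and Dusp6, an ERK target, was at -1.42 ± 0.04 with PD0325901, averaged likewise. Dusp6 also read lower with CHIR99021 alone, with means of 11.06 in DMSO, 10.41 in CHIR, 9.34 in PD03 and 9.29 in 2i. All 7 ES cell markers had group means between 9.82 and 13.15, and 7 fibroblast or feeder markers lay between 4.80 and 7.77. Array medians lay between 6.98 and 7.06.

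The mRNAs of the 7 genes stayed within a narrow band. The highest and the lowest of the 5 group means differed by 0.09 for Csnk1a1 up to 0.15 for Gsk3b and Apc, with a median of 0.12 over the 7 genes. The same range had a median of 0.15 over all 19937 genes and of 0.21 over the 6267 genes with a mean of at least 9, the level at which all 7 genes lay. For Axin2, a paralog of Axin1, it was 1.70. A test for any difference between the 5 groups (limma moderated F, adjusted over all genes, called at adjusted p under 0.05) called 4 of the 7, against 41.8% of all genes. These were Ctnnb1 (adjusted p = 0.0091), Btrc (0.0124), Gsk3b (0.0144) and Apc (0.0405). Gsk3a (0.226), Axin1 (0.37) and Csnk1a1 (0.39) were not called. With each array centred on its own median Gsk3b alone was called (0.0475), and 2 genes were called without 2iLIF replicate 3, without PD03 replicate 1 or without PD03 replicate 3.

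**Figure D1:**
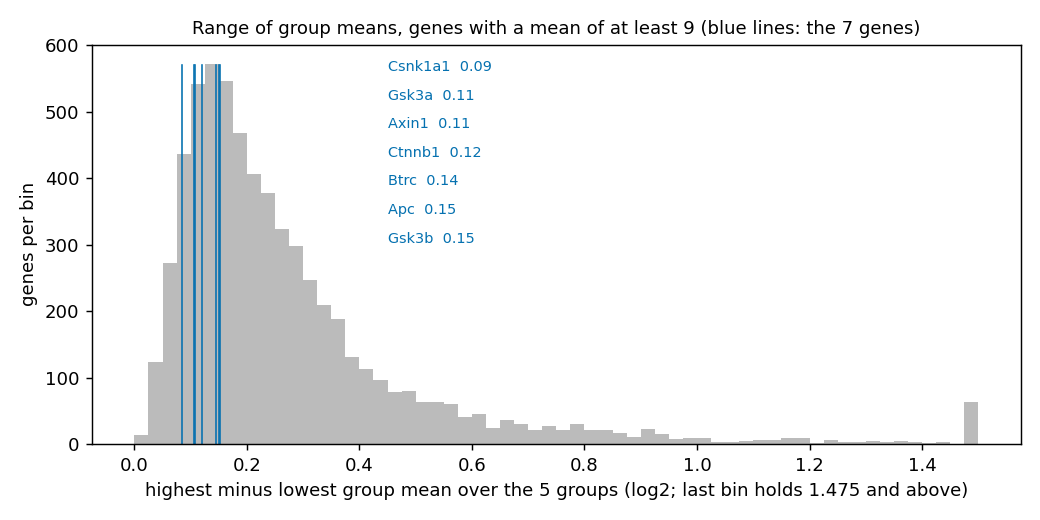
Histogram of the range of group means (highest minus lowest of the 5 groups, log2) over the 6267 genes with a mean of at least 9; blue lines mark the 7 genes. All 7 lie between 0.09 and 0.15, left of the histogram's median of 0.21.

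Promoter windows come from RefSeq, and Apc and Csnk1a1 were not looked up. Of the 5 genes looked up, 3 had a window, and none was found for Axin1 and Btrc. The 250 bases before the RefSeq start are shown for the 3 found, Ctnnb1, Gsk3a and Gsk3b. Of these, Ctnnb1 and Gsk3b differed with an inhibitor, and Gsk3a, the paralog of Gsk3b, was not called. The build is GRCm38.p6. The Ctnnb1 window is chr9:120933150-120933399 on the plus strand, that of Gsk3b is chr16:38088751-38089000 on the plus strand, and that of Gsk3a is chr7:25237852-25238101 on the minus strand. Capitals mark matches, on either strand, to CTTTGA (the core bound by TCF and LEF factors; TCAAAG on the other strand), TATAAA (the TATA box; TTTATA) and GGGCGG (the core bound by Sp1; CCGCCC). No match overlaps another.
Ctnnb1: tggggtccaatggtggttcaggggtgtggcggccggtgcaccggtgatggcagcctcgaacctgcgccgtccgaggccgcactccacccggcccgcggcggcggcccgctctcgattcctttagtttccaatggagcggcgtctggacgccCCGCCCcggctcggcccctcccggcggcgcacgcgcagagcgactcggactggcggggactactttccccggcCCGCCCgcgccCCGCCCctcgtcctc
Gsk3b: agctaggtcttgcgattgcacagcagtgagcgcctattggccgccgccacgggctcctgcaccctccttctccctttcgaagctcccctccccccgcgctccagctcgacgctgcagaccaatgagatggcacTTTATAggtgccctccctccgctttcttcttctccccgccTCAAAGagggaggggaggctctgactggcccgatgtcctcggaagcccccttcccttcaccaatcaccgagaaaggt
Gsk3a: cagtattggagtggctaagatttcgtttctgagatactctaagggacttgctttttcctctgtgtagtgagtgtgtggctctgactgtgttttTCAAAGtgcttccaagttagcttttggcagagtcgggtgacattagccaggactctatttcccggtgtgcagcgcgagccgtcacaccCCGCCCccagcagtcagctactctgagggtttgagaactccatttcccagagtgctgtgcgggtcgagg
Ctnnb1 held 3 matches to GGGCGG and none to the other motifs, in a window with 74.8% G and C. Gsk3b held 1 CTTTGA match, 77 to 72 bases before the start, and 1 TATAAA match, 117 to 112 bases before it. Both were on the other strand, as were the Ctnnb1 and Gsk3a matches. Gsk3a held 1 CTTTGA match, 157 to 152 bases before the start, and 1 GGGCGG match. Of 32851 windows of the same length, 13.8% held CTTTGA, 12.4% TATAAA and 32.7% GGGCGG. The Axin2 window, too, held no CTTTGA. A match is a description of letters and not a bound site.

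Ctnnb1, the gene of beta-catenin itself, read lower wherever CHIR99021 was present. Its arrays read 11.89, 11.93 and 11.92 in 2iLIF, 11.95, 11.91 and 11.89 in 2i, and 11.90, 11.93 and 11.91 in CHIR. They read 12.01, 12.05 and 12.03 in PD03 and 12.00, 11.99 and 12.01 in DMSO. The 9 arrays with CHIR99021 thus all lay below the 6 without it, a pattern of the same direction that 5.16% of all genes shared. Averaged over both PD0325901 states without LIF, Ctnnb1 fell by 0.10 ± 0.02 with CHIR99021 (limma adjusted p = 0.00237), which is a drop in signal by 6.82% with a 95% interval of -9.85% to -3.68%. It was the only 1 of the 7 genes called for CHIR99021, where 29.4% of all genes were called, 14.3% lower. In RNA from whole cultures, fewer cells of a type and less RNA per cell cannot be told apart. That call held in all 18 alternative settings, with differences from -0.11 to -0.09 and adjusted p-values up to 0.0188.

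Pair by pair the same difference lay near the threshold. Against DMSO, Ctnnb1 was at -0.09 ± 0.03 in 2i (limma adjusted p = 0.0591) and at -0.09 ± 0.03 in CHIR (0.0683). Neither pair had a call among the 7 genes, and each had 1 gene, Ctnnb1, at an unadjusted p under 0.05, where 25.5% (2i) and 20.8% (CHIR) of all genes were called. With weak genes left out both pairs were called (0.0413 and 0.0475), as they were with the trend and robust settings, and the 2i pair was called without 2i replicate 1 (0.0496).

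Against PD03, Ctnnb1 fell by 0.12 ± 0.03 in 2i (limma adjusted p = 0.0152), and the call was lost without 2i replicate 2 (0.0516), without 2i replicate 3 (0.064) or without PD03 replicate 2 (0.0634). In CHIR against PD03, a pair added later, it also fell by 0.12 ± 0.03 (0.0116), a call lost without PD03 replicate 2 (0.0521) and with arrays centred (0.0889). PD0325901 itself gave 0.02 ± 0.02 on average (interval -0.03 to 0.06, adjusted p = 0.68). The means were 11.91 in each group with CHIR99021, and the interval of 2iLIF minus 2i ran from -0.07 to 0.06. In 2i minus CHIR, where 9.46% of all genes were called, limma called none of the 7 genes, and 0 had an unadjusted p under 0.05.

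**Figure D2:**
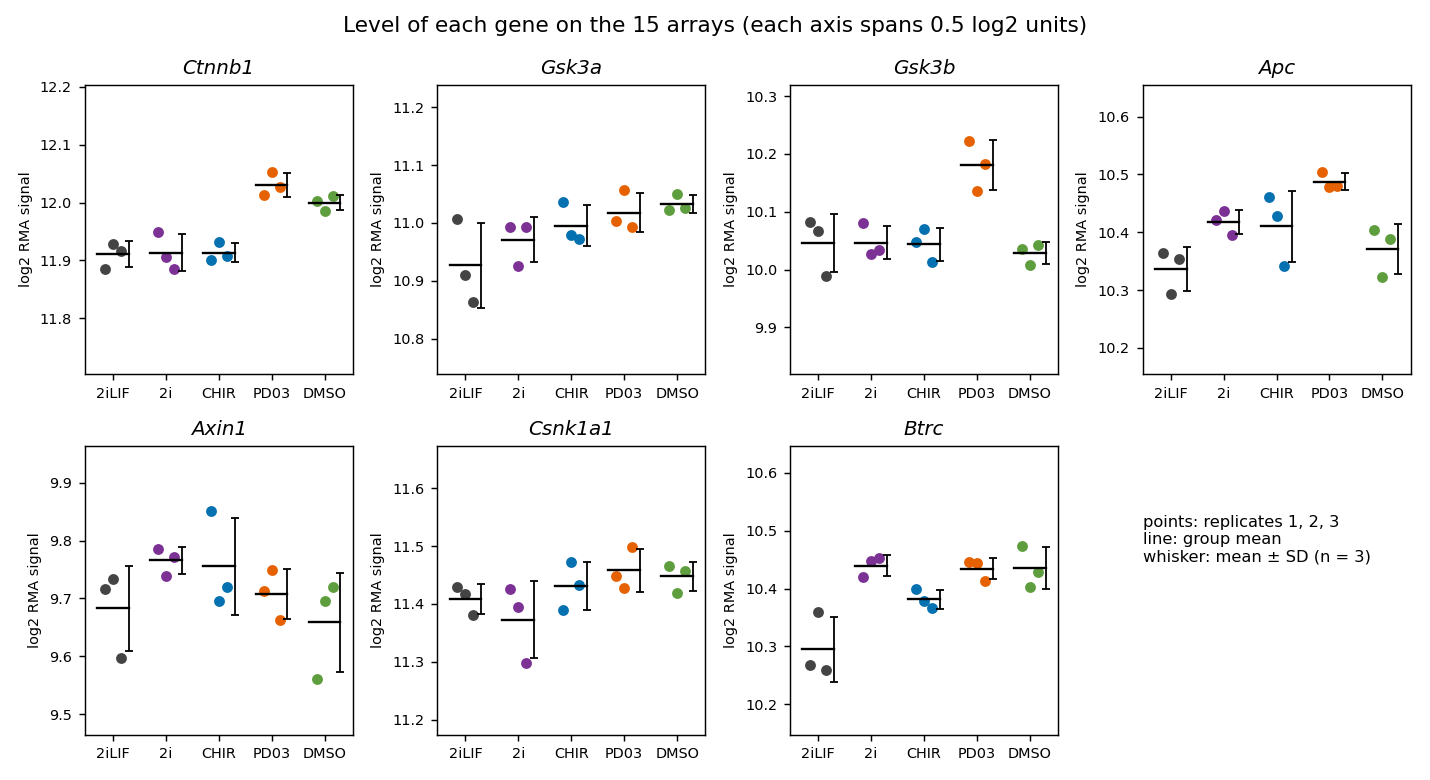
Log2 RMA signal of each gene by group; points are replicates 1 to 3, lines are means and whiskers 1 SD (n = 3), and every axis spans 0.5 log2 units. Ctnnb1 separates the 3 groups with CHIR99021 (means of 11.91) from PD03 (12.03) and DMSO (12.00), Gsk3b is high in PD03 (10.18) and Btrc is low in 2iLIF (10.30).

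Among the kinase genes Gsk3b, which encodes GSK3 beta, was high in a single group, the one with PD0325901 and no CHIR99021. Its arrays read 10.22, 10.14 and 10.18 in PD03. They read 10.04, 10.01 and 10.04 in DMSO, 10.05, 10.07 and 10.01 in CHIR, 10.08, 10.03 and 10.03 in 2i, and 10.08, 10.07 and 9.99 in 2iLIF. All PD03 arrays thus lay above all 12 others, as for 4.11% of all genes. Gsk3b rose by 0.15 ± 0.04 in PD03 minus DMSO (limma adjusted p = 0.00873; 11.1% with a 95% interval of 5.21% to 17.3%), the only 1 of the 7 called there, against 16.8% of all genes, 8.67% higher. Arrays without overlap between PD03 and DMSO were seen for 31.4% of all genes. This call held in all 12 alternatives, with adjusted p-values up to 0.0496.

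With CHIR99021 present, Gsk3b was at 0.00 ± 0.04 in 2i minus CHIR (interval -0.08 to 0.08, limma adjusted p = 0.974). Gsk3b fell by 0.13 ± 0.04 in 2i minus PD03 (limma adjusted p = 0.0169), where it and Ctnnb1 were the 2 called genes, against 19.5% of all genes, 9.44% lower. Arrays did not overlap for either gene, as for 35.8% of all genes. Leaving out 2i replicate 2 (0.0641), 2i replicate 3 (0.0564), PD03 replicate 1 (0.0847) or PD03 replicate 3 (0.0502) ended the Gsk3b call. The difference between both effects, tested as the interaction, was -0.15 ± 0.05 with an interval of -0.26 to -0.04, but did not pass over all genes (adjusted p = 0.213). None of the 7 genes had an interaction past the threshold, 1 (Gsk3b) had an unadjusted p under 0.05, and 2.04% of all genes passed. Averaged over CHIR99021 states, Gsk3b was 0.08 ± 0.03 higher with PD0325901 (adjusted p = 0.0456), the only 1 of the 7 called, against 21.5% of all genes, 11.6% higher. The averaged call was lost on leaving out any single array of these 4 groups except PD03 replicate 2, with adjusted p-values from 0.0506 to 0.113, and with arrays centred on their medians (0.139).

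Gsk3a, which encodes the other GSK3 kinase, was called in none of the 9 comparisons planned. Its arrays read 11.01, 10.91 and 10.86 in 2iLIF, and its group means had the order 2iLIF (10.93), 2i (10.97), CHIR, PD03 (11.02) and DMSO (11.03). Neighbours in that order overlapped between their arrays. Its average differences were -0.04 ± 0.03 with CHIR99021 (limma adjusted p = 0.328) and -0.02 ± 0.03 with PD0325901 (0.684). The largest was in a pair added later, 2iLIF minus DMSO, at -0.11 ± 0.04 (adjusted p = 0.0555). It was called without 2iLIF replicate 1 (0.00984), with weak genes left out (0.0411) and with the trend and robust settings (0.0236). Csnk1a1, the gene of the priming kinase casein kinase 1 alpha, was called in no comparison either. Its arrays lay between 11.30 and 11.50, with 2i replicate 3 the lowest and PD03 replicate 3 the highest. Its averages were -0.05 ± 0.03 with CHIR99021 (interval -0.11 to 0.01) and -0.02 ± 0.03 with PD0325901 (interval -0.08 to 0.04).

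Neither scaffold gene was called for an inhibitor. Apc, the gene of the scaffold mutated in intestinal polyposis, read 10.50, 10.48 and 10.48 in PD03 and 10.40, 10.32 and 10.39 in DMSO. These arrays did not overlap, as for 31.4% of all genes, and the difference of 0.12 ± 0.04 just missed the threshold (limma adjusted p = 0.0517). It was called with weak genes left out (0.0378) and with the trend and robust settings of the test (0.0281). Apc had its lowest mean in 2iLIF, at 10.36, 10.29 and 10.35. In 2iLIF minus PD03, a pair added later whose groups also differ in CHIR99021, it was at -0.15 ± 0.04 (adjusted p = 0.00637). It was not called in 2iLIF minus 2i (-0.08 ± 0.04, adjusted p = 0.23). Nor was it called in 2iLIF minus CHIR (-0.07 ± 0.04, 0.216) or 2iLIF minus DMSO (-0.03 ± 0.04, 0.57). Axin1 read 9.56 to 9.72 in DMSO, 9.66 to 9.75 in PD03, 9.70 to 9.85 in CHIR, 9.74 to 9.79 in 2i and 9.60 to 9.73 in 2iLIF. Its average difference with CHIR99021 was 0.08 ± 0.04 (adjusted p = 0.143), with an interval from -0.12% to 11.5% in signal, the widest of the 7 genes. Its paralog Axin2 was at 1.49 in the same comparison.

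Btrc, which encodes the F-box protein beta-TrCP, was low where LIF had been kept. Its arrays read 10.27, 10.36 and 10.26 in 2iLIF. They read 10.42, 10.45 and 10.45 in 2i, 10.40, 10.38 and 10.37 in CHIR, 10.45, 10.44 and 10.41 in PD03, and 10.47, 10.40 and 10.43 in DMSO. All 2iLIF arrays lay below all 12 others, as for 7.7% of all genes, with the highest (10.359) close to the lowest CHIR array (10.366), and no pair of the other groups was called. In 2iLIF minus 2i Btrc fell by 0.14 ± 0.04 (limma adjusted p = 0.0125; -9.54% with a 95% interval of -14.2% to -4.66%). It was the only 1 of the 7 genes called in this comparison, against 12.2% of all genes, 7.66% lower. Arrays did not overlap for 26% of all genes. Only 2iLIF had stayed in long-term culture, so LIF and the unbroken culture cannot be told apart in any comparison with 2iLIF. The call was lost without 2iLIF replicate 3 (0.0575), with a fit on these 6 arrays alone (0.0711) and with arrays centred on their medians (0.0559). In pairs added later 2iLIF minus DMSO and 2iLIF minus PD03 were both at -0.14 ± 0.04 (0.00531 and 0.00625), and 2iLIF minus CHIR was at -0.09 ± 0.04 (0.102, and 0.0334 without 2iLIF replicate 2). The groups of these pairs also differ in inhibitors: in both for DMSO, in CHIR99021 for PD03 and in PD0325901 for CHIR. Arrays did not overlap for 41.3%, 42% and 33.9% of all genes in these pairs, in the order DMSO, PD03 and CHIR, and all pairs share the 2iLIF arrays. A fit on 2iLIF and DMSO alone gave 0.0508. Neither inhibitor had a called effect on Btrc, with averages of -0.02 ± 0.03 for CHIR99021 and 0.03 ± 0.03 for PD0325901.

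Of the 4 pairs added later, limma called 4 of the 7 genes lower in 2iLIF than in PD03 (Ctnnb1, Gsk3b, Apc and Btrc). In either direction 31.7% of all genes were called there, 3244 of 19937 lower. The Gsk3b call there was lost without 2iLIF replicate 3 (0.0559) or PD03 replicate 1 (0.0546), and Gsk3a was called without 2iLIF replicate 1 (0.0203). The test called 2 lower in 2iLIF than in DMSO (Btrc and Ctnnb1), against 34.7% of all genes in either direction, 3582 lower. The Ctnnb1 call (0.0398) was lost on leaving out any 1 of these 6 arrays. Ctnnb1 and Gsk3b were called lower in CHIR than in PD03, against 25.8% of all genes in either direction, 2634 lower. Gsk3b (0.0115) was lost without CHIR replicate 3 (0.0526) or PD03 replicate 1 (0.0586) and with arrays centred (0.0683). In 2iLIF minus CHIR, where 23.1% of all genes were called, 0 of the 7 were called and 1 (Btrc) had an unadjusted p under 0.05.

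**Figure D3:**
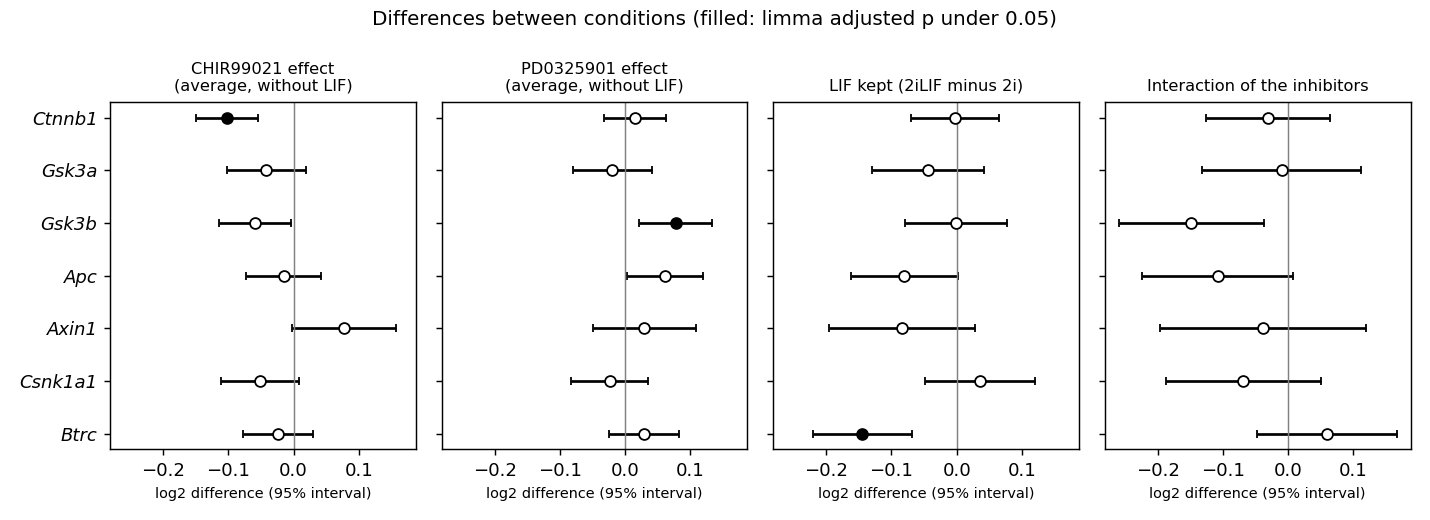
Log2 difference (point) and 95% interval (bar) of each gene for CHIR99021 and PD0325901, each averaged over the other inhibitor without LIF, for LIF kept, and for the interaction. Filled points passed: Ctnnb1 for CHIR99021 (-0.10), Gsk3b for PD0325901 (0.08) and Btrc for LIF (-0.14); no interaction passed.

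Over the 15 arrays, which share their groups, 19 of 21 pairwise Pearson correlations were positive, with a median of 0.30, and these are descriptions without a test. The share of positive pairs among all genes was not computed. Gsk3b and Apc, both highest in PD03, were the most alike (r = 0.70, rho = 0.64), and within groups that pair was at 0.32. With group means taken out, pairs ran from -0.31 (Axin1 and Csnk1a1) to 0.64 (Gsk3a and Axin1). Some positive pairs turned negative, such as Ctnnb1 and Gsk3a (r = 0.48, within groups -0.22), and others stayed positive. Axin1 correlated negatively with Csnk1a1 (r = -0.40, rho = -0.54) and Ctnnb1 (r = -0.31, rho = -0.36). Of 8450 named genes with a mean of at least 8, those most like Ctnnb1 over the 15 arrays were Morc1 (r = 0.94, rho = 0.89), Prc1 (0.94 and 0.85) and Nusap1 (0.94 and 0.92). Morc1 had means of 10.45 in PD03 and 10.41 in DMSO, and of 10.16 to 10.22 in the groups with CHIR99021. Most like Gsk3b were Mrtfb (r = 0.93, rho = 0.83), Ywhah (0.92 and 0.73) and Sirt6 (0.90 and 0.81). Glg1 was most like Apc (0.91 and 0.90), before Rbms1 and Sptbn1, and Mapk8ip3 most like Btrc (0.91 and 0.71), before Odf2 and Cux1. For Btrc the likeness rested in part on 2 arrays, since without the 2 farthest from its median r with Mapk8ip3 was 0.69.

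Of the wider machinery around the complex, 38 genes on 7 lists were measured. With CHIR99021, averaged, 18 of 38 were called, 5 higher and 13 lower, against 29.4% of all genes (15.2% higher and 14.3% lower), and their median was -0.03 against 0.00 for all genes. That count lay between 12 (without PD03 replicate 2) and 19 in the alternatives. With PD0325901, averaged, 9 of 38 were called, 6 higher and 3 lower, against 21.5% of all genes (11.6% higher and 9.94% lower), with a median of 0.00 against 0.01; without PD03 replicate 1 it was 6. In 2iLIF minus 2i, 3 of 38 were called, against 12.2% of all genes, and without 2iLIF replicate 3, 2i replicate 1 or 2i replicate 2 it was 1 (Jup). These were Jup (0.32 ± 0.04), Amer1 (-0.16 ± 0.04), a scaffold that binds APC, and Dvl1 (-0.18 ± 0.05), a Dishevelled protein that inhibits the complex on Wnt signals. The Dvl1 call was lost in 7 of 12 alternatives: with arrays centred (0.0502), with these 6 arrays alone (0.07) and without 2iLIF replicate 2 (0.19) or 3 (0.0529) or any 2i replicate (0.0525 to 0.145). The Amer1 call was lost with the 6 arrays alone (0.117) and without 2iLIF replicate 1 (0.114) or 3 (0.0655) or 2i replicate 1 (0.127) or 2 (0.0823).

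With CHIR99021, averaged, 1 of 6 GSK3-binding and Dishevelled genes was called higher and 2 lower, and 1 of 4 axin turnover genes was called higher and 1 lower, against 15.2% higher and 14.3% lower of all genes. Gskip, which encodes a GSK3-binding protein that anchors the kinase to protein kinase A, read 7.78 to 7.84 in CHIR and 7.85 or more in 2i, and 7.37 to 7.61 in DMSO and 7.60 to 7.76 in PD03. These arrays did not overlap, as for 11.9% of all genes, and Gskip rose by 0.27 ± 0.04 (limma adjusted p = 2.08e-04). Frat2, whose product takes GSK3 from Axin, fell by 0.17 ± 0.04 (0.00729), from a low level of 7.46 in DMSO. Its paralog Frat1 was at -0.17 ± 0.05 (0.0264), a call lost with arrays centred (0.053) and without 2i replicate 1 (0.0618) or 2 (0.0527), CHIR replicate 1 (0.0527) or 3 (0.0538), PD03 replicate 2 (0.0775) or DMSO replicate 3 (0.0674). Of the axin turnover genes Rnf146, a ubiquitin ligase that degrades poly-ADP-ribosylated Axin, rose by 0.21 ± 0.05 (0.00557), and Tnks, the tankyrase that modifies Axin, fell by 0.13 ± 0.03 (0.00106). The other 2 of the 4 axin turnover genes were not called. The averaged calls of Gskip, Frat2, Rnf146 and Tnks held in all 18 alternatives. Pair by pair, Rnf146 (0.28) and Frat2 (-0.21) were called in CHIR minus DMSO but not in 2i minus PD03. Rnf146 had means of 8.52 in CHIR, 8.24 in DMSO, 8.40 in 2i and 8.27 in PD03. Its 2i arrays (8.30 to 8.48) overlapped those of PD03 (8.21 to 8.36). Frat2 had means of 7.24 in CHIR and in 2i, 7.46 in DMSO and 7.36 in PD03.

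Of 9 PP2A phosphatase genes, 3 were called lower and none higher with CHIR99021, averaged. Of all genes 29.4% were called, 15.2% higher and 14.3% lower. These were the regulatory subunit genes Ppp2r5b (-0.33 ± 0.05), Ppp2r5c (-0.20 ± 0.03, and -0.13 as the mean of its probe sets) and Ppp2r5a (-0.10 ± 0.04), the last with adjusted p = 0.0409, and 0.175 as the mean of its probe sets. The Ppp2r5a call was also lost with arrays centred (0.107) and without 2i replicate 1 or 3, CHIR replicate 3 (0.115), DMSO replicate 2 or any PD03 replicate. In CHIR minus DMSO Ppp2r5a was at 0.02 ± 0.05 (adjusted p = 0.835), and in 2i minus PD03 at -0.23 ± 0.05 (0.00405). Of 5 casein kinase 1 genes, 1 was called higher and 1 lower with CHIR99021, against 29.4% of all genes called. With PD0325901 1 was called higher, against 21.5%. Csnk1g1 rose by 0.14 ± 0.03 with CHIR99021 and by 0.13 ± 0.03 with PD0325901, both averaged. Its mean was 8.90 in DMSO, 9.10 in CHIR, 9.09 in PD03, 9.16 in 2i and 9.07 in 2iLIF. None of the 5 was called in 2i minus CHIR, in 2i minus PD03 or for the interaction. In pairs added later, Csnk1e (-0.22), Csnk1g2 (-0.20) and Csnk1g3 (-0.20) were called lower in 2iLIF than in PD03. There 31.7% of all genes were called, 3244 of 19937 lower. These 3 were also called lower, and Csnk1g1 higher, in 2iLIF minus DMSO, against 34.7% of all genes, 3582 lower. In that pair Csnk1e and Csnk1g2 lost the call in 3 and 4 of 12 alternatives. Csnk1e was at -0.10 ± 0.03 with CHIR99021 (adjusted p = 0.0277). That call was lost with arrays centred (0.0738) and without 2i replicate 3 (0.0668), CHIR replicate 1 (0.062), PD03 replicate 2 (0.0663) or DMSO replicate 1 (0.0724). Of the ubiquitin ligase core that carries beta-TrCP, the cullin gene Cul1 was 0.13 ± 0.02 lower with PD0325901 (adjusted p = 0.00134), and Nedd8, whose product activates cullins, was at -0.10 ± 0.03 (0.0455), a call lost with arrays centred (0.0508) and without any of the 12 arrays outside 2iLIF except 2i replicate 3, CHIR replicate 1 and DMSO replicate 1 (up to 0.117, without 2i replicate 1). Cul1 was 0.07 ± 0.02 higher with CHIR99021 (0.0325), a call lost without any of these 12 arrays except 2i replicate 3, CHIR replicate 1 and DMSO replicates 1 and 3 (up to 0.083, without 2i replicate 2). The other 2 of the 4 core genes were not called in either averaged comparison.

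Averaged over PD0325901, all 5 genes on the list of junction partners and inhibitors were called lower with CHIR99021, where 29.4% of all genes were called and 14.3% were lower. The E-cadherin gene Cdh1 fell by 0.12 ± 0.02, alpha-catenin Ctnna1 by 0.11 ± 0.02 and p120-catenin Ctnnd1 by 0.10 ± 0.02, and the beta-catenin inhibitors Ctnnbip1 and Cby1 each by 0.10 ± 0.03. Pair by pair fewer passed: 2 of 5 in CHIR minus DMSO (Cdh1 and Ctnnbip1), 1 of 5 in 2i minus DMSO (Ctnnbip1) and 2 of 5 in 2i minus PD03 (Ctnna1 and Ctnnd1), against 20.8%, 25.5% and 19.5% of all genes. Ctnna1 was at -0.19 ± 0.03 in 2i minus PD03 and at -0.03 ± 0.03 in CHIR minus DMSO (limma adjusted p = 0.626), and its mean was 11.25 in 2i, above the 11.18 of DMSO. The calls of Ctnnbip1 (limma adjusted p = 0.0495) and Cby1 (0.028) were lost with arrays centred (0.138 and 0.0998), and without PD03 replicate 2 (0.0934 and 0.0702) or DMSO replicate 2 (0.128 and 0.0775). Cby1 was also lost without 2i replicate 1, CHIR replicate 3 or PD03 replicate 3, and Ctnnbip1 without any of the 12 arrays outside 2iLIF except CHIR replicate 3 and DMSO replicate 1, in the fit on the compared groups alone (0.0531) and with trend and robust moderation (0.0564). Ctnna1 was highest in PD03, at 11.42 to 11.45 against 11.16 to 11.21 in DMSO, and rose by 0.17 ± 0.02 with PD0325901 on average (adjusted p = 2.60e-05). Its arrays with and without PD0325901 did not overlap in that comparison, as for 6.26% of all genes.

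Jup, which encodes plakoglobin (gamma-catenin), the closest relative of beta-catenin, had the widest range of group means of the listed genes after Axin2. Its group means were 11.19 ± 0.07 in 2iLIF, 11.17 ± 0.05 in PD03, 10.87 ± 0.02 in 2i, 10.72 ± 0.04 in DMSO and 10.34 ± 0.03 in CHIR (SD, n = 3 each). Jup fell by 0.34 ± 0.03 with CHIR99021, rose by 0.49 ± 0.03 with PD0325901 (limma adjusted p = 3.21e-07 and 7.96e-09) and was 0.32 ± 0.04 higher in 2iLIF than in 2i. Its range of 0.84 over the 5 groups compares with 0.12 for Ctnnb1, both as differences on the log2 scale. The 3 CHIR arrays were the lowest of all 15, as for 1.69% of all genes.

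**Figure D4:**
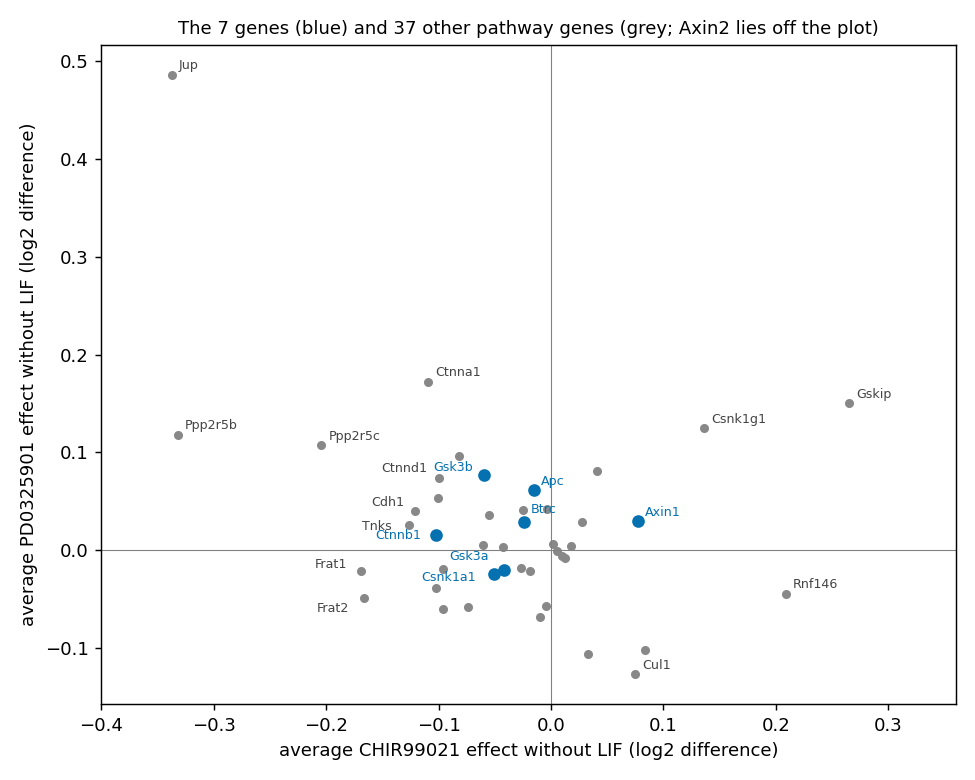
Average effect of CHIR99021 (horizontal) and of PD0325901 (vertical), both log2 differences without LIF, for the 7 genes (blue) and the other listed genes (grey; selected genes named). Axin2, at 1.49 on the horizontal axis, is off the plot; the 7 genes lie between -0.10 and 0.08 on both axes, while Jup lies at -0.34 and 0.49 and Gskip at 0.27 and 0.15.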

How the data were processed

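The authors deposited log2 values per probe set for 15 arrays, made with RMA, per the submitters' processing notes; its version and any genome build are not given in the sources used here. RMA corrects background, makes the arrays' distributions equal and summarises probes, so a shift shared by most genes cannot be seen. Of 34760 probe sets, 21640 had exactly 1 symbol in the platform annotation. Each gene was represented by its brightest probe set on average, which left 19937 genes, and no sample column was left unused.

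The 15 arrays entered 1 model of 5 groups in limma 3.58.1 (functions lmFit and eBayes; 10 residual and 5.09 prior degrees of freedom) in R 4.3.3. It gave 9 comparisons and an F test over the groups, and 4 further pairs were added after the values were seen. Adjusted p-values are two-sided, Benjamini-Hochberg over all genes. Intervals are 95% intervals of the fit. The labels do not say that replicates were separate cultures, and the spread behind each p-value is that between these samples, which may be technical; 3 arrays per group limit the precision.

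The 7 genes, the pathway lists and the tests were chosen with earlier results of these data known. Named genes are the 7, listed genes called in a comparison, the 3 genes most correlated with each gene called by the F test (mean at least 8, predicted genes left out), Axin2 and Dusp6. The procedure was tested on simulated data, where recovery of calls was required only at a difference larger than any between group means of the 7 genes. Of 39 listed symbols 38 were measured, and Skp1a, an older symbol of Skp1, matched no probe set. No detection calls were used. Alternatives were a fit on the compared groups alone, a minimum mean of 6, trend and robust moderation, median centring, the mean of a gene's probe sets, a replicate block, and leaving out each array.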

Additional observations from a re-analysis of the deposited data

How the results depend on the processing

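Over 1218 combinations of a gene, a comparison and an alternative setting, the 7 genes kept their side of the threshold in 1167, lost a call in 39 and gained one in 12, and no called difference turned its sign. The number of the 7 genes called changed as follows, first in the comparisons planned. With arrays centred on their medians it was 0 in place of 1 for PD0325901 averaged and for 2iLIF minus 2i, and 1 in place of 4 in the F test. With genes below a mean of 6 left out, and also with trend and robust moderation, it was 1 in place of 0 for 2i and for CHIR against DMSO, and 2 in place of 1 for PD03 against DMSO. With the arrays of the compared groups alone it was 0 in 2iLIF minus 2i. Leaving out 1 array gave 0 to 1 for PD0325901 averaged, 2i minus DMSO and 2iLIF minus 2i, 0 to 2 for 2i minus PD03 and 2 to 4 for the F test. The counts for CHIR99021 averaged (1), 2i minus CHIR (0) and the interaction (0) were the same in all settings run. Of the pairs added later, 2iLIF minus DMSO fell from 2 to 0 with its own arrays alone and rose to 3 with weak genes left out and with trend and robust moderation, and CHIR minus PD03 fell from 2 to 0 with arrays centred.

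Same-numbered replicates did not deviate together: over 30 pairs the median correlation of deviations was -0.01, and 4 of 15 arrays correlated best with their own number. With the replicate block Ctnnb1 stood at -0.10 with CHIR99021, its call kept, and the pair 2iLIF minus DMSO lost its Ctnnb1 call (limma adjusted p = 0.0583); no other call of the 7 genes changed. The interaction called 406 genes, and 269 and 255 without PD03 replicate 1 and 3. Median centring, which moved an array by at most 0.05, changed the split of calls: in CHIR minus DMSO from 1998 higher and 2146 lower to 2384 and 1670, in 2i minus CHIR from 1137 and 750 to 816 and 823, and in the interaction from 186 and 220 to 111 and 226.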
